A study of Mus musculus with 10 samples.

Results

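The Reg (regenerating) genes are a family of small secreted lectin-like proteins, and their 6 mouse members on chromosome 6, Reg1, Reg2, Reg3a, Reg3b, Reg3d and Reg3g, were followed in islet RNA sequencing libraries. They were taken by gene symbol, and all 6 were found among the 24475 genes of the table. The genes were selected on RPKM differences between these same 10 libraries, so their differences between the groups are a description. Counts of members called by the fit over all genes stand only beside the share of all genes called. The 10 libraries came from pancreatic islets of C57BL/6 mice. Replicates 1 to 5 were from mice that received REGN1193, a blocking antibody to the glucagon receptor (GCGR). Replicates 6 to 10 were from mice that received an isotype antibody as control. No other allele or agent is named for either group, and neither dose, duration, age, sex nor batch is stated. Whether each library is a separate animal is not stated either, so p-values measure the spread between these libraries, which may be partly technical.

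Reg proteins are made mainly by the acinar (enzyme-secreting) cells of the pancreas and by the gut epithelium. Reg1 encodes the pancreatic stone protein of pancreatic juice, and Reg3b was first known as the pancreatitis-associated protein because it is strongly induced in acinar cells when the pancreas is injured. Reg3g encodes a bactericidal lectin of the intestine, and both Reg3b and Reg3g are known to be induced through the transcription factor STAT3. Reg2 is known in mice from regenerating and inflamed islets, and Reg3d is related to the hamster islet neogenesis-associated protein.

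The 6 genes lie together within 98.0 kb of chromosome 6 (GRCm38.p6), from 78370885 at the start of Reg3b to 78468874 at the end of Reg3g, in the order Reg3b, Reg3d, Reg3a, Reg2, Reg1 and Reg3g. Reg3d and Reg3g are on the minus strand and the others on the plus strand. The 250 bases before each RefSeq start site (GRCm38.p6, written 5′ to 3′ along the gene's own strand) are shown so that members whose levels varied together can be compared. Capitals mark 3 motifs, searched on both strands: CACCTG, an E-box that basic helix-loop-helix factors such as the acinar factor PTF1A can bind, TTCNNNGAA, the STAT consensus, and TATAAA, the TATA box. The motifs were chosen after the expression values had been seen.
Reg1: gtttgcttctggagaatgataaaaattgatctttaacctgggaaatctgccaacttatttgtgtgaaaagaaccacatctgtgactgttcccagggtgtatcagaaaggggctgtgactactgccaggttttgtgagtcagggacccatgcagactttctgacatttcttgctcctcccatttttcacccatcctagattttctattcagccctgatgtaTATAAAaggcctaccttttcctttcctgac
Reg2: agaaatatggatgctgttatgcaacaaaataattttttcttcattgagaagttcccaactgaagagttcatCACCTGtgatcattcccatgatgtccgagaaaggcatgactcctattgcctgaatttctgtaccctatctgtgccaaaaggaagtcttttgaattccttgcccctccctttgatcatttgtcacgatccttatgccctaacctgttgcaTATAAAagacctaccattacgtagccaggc
Reg3a: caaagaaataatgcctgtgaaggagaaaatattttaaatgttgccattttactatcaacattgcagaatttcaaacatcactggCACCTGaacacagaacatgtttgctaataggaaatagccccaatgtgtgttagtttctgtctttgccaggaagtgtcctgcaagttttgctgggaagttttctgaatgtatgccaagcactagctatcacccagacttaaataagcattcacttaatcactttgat
Reg3b: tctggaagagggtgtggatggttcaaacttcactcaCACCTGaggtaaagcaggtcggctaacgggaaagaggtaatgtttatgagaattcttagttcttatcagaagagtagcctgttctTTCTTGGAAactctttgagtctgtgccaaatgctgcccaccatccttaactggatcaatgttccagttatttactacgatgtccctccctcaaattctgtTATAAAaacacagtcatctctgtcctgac
Reg3d: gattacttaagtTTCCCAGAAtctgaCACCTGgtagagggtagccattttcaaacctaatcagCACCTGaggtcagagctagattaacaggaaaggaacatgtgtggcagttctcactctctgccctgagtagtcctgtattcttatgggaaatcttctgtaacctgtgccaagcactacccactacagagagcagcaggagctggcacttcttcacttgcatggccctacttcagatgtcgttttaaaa
Reg3g: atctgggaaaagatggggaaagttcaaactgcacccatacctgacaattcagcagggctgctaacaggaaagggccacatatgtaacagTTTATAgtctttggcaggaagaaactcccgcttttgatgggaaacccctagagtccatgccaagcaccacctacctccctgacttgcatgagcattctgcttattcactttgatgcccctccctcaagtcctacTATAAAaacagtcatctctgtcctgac
These stretches are chr6:78425733-78425982 for Reg1, chr6:78404905-78405154 for Reg2, chr6:78380459-78380708 for Reg3a and chr6:78370635-78370884 for Reg3b on the plus strand, and chr6:78378866-78379115 for Reg3d and chr6:78468875-78469124 for Reg3g on the minus strand. TATAAA stood 27 to 30 bases before the start of Reg1, Reg2, Reg3b and Reg3g, that is in 4 of 6 members, and 12.4% of 32851 RefSeq promoter stretches of this length held it anywhere. CACCTG was found in Reg2, Reg3a, Reg3b and Reg3d (4 of 6, against 17.2% of all stretches). TTCNNNGAA was found in Reg3b and Reg3d (2 of 6, against 7.02%). A match describes the letters in this window and is no evidence of a bound factor. In global alignments of the 15 pairs, Reg3b and Reg3g were the most alike, with 68.9% identical positions and a shared run of 20 bases. Reg1 and Reg2 followed with 58.5%, and the other 13 pairs ran from 47.9% to 54.5%.

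Transcript levels are the authors' RPKM values (reads per kilobase of transcript, scaled to library depth). The depth behind them, estimated from the steps of the low values, ran from 14.5 to 18.1 megareads in the GCGR antibody libraries and from 12.3 to 14.8 megareads in the isotype libraries. Islet identity was plain in all libraries. The 11 beta cell genes, among them both insulin genes, summed to 198865 to 356305 RPKM with the GCGR antibody and 298363 to 472105 RPKM with the isotype antibody. Of 9 alpha cell genes 8 rose with the antibody in limma over 13450 tested genes, against 0.394% of all genes called higher, and all 9 lay above every isotype library in every GCGR antibody library, as 1.14% of all genes did.

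Per kilobase, Reg1 was the most abundant member in all 10 libraries. By the mean over libraries it was followed by Reg3b, Reg2, Reg3g, Reg3d and Reg3a. Reg3b and Reg2 did not keep that order: Reg3b was above Reg2 in 2 of 10 libraries, both of them isotype libraries. Reg3g was above Reg3d in 8 of 10, while Reg2 was above Reg3g and Reg3d above Reg3a in all 10. Reg1 made up 69.5% to 90.02% of the summed RPKM of the family with the GCGR antibody and 61.6% to 77.5% with the isotype antibody. Reg3b made up 2.39% to 10.9% with the GCGR antibody and 7.71% to 23.3% with the isotype antibody.

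Reg3b and Reg3g, the injury-induced and bactericidal lectins, showed the widest separation of the groups. Reg3b stood at 20.2, 12.5, 18.1, 6.84 and 8.13 RPKM in GCGR antibody replicates 1 to 5, against 67.2, 33.04, 51.6, 64.7 and 334 RPKM in isotype replicates 6 to 10. Every GCGR antibody library lay below every isotype library, and isotype replicate 10 was far above the others. The means were 13.1 ± 5.89 RPKM with the GCGR antibody and 110.04 ± 126 RPKM with the isotype antibody (SD, n = 5 each), a log2 difference of -2.60 (SE 0.53). Without isotype replicate 10 the isotype mean was 54.1 ± 15.6 RPKM (SD, n = 4) and the log2 difference -2.07 (SE 0.33). In bulk islet RNA, fewer cells of a type and less RNA per cell cannot be told apart.

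Reg3g stood at 4.21, 2.80, 3.82, 3.18 and 2.70 RPKM in GCGR antibody replicates 1 to 5, against 8.74, 8.54, 10.4, 12.2 and 79.3 RPKM in isotype replicates 6 to 10. The groups again did not overlap, the 5 GCGR antibody values lay close together, and isotype replicate 10 was again the highest by far. The means were 3.34 ± 0.66 RPKM with the GCGR antibody and 23.9 ± 31.04 RPKM with the isotype antibody (SD, n = 5 each), a log2 difference of -2.04 (SE 0.50). Without isotype replicate 10 the isotype mean was 9.99 ± 1.72 RPKM (SD, n = 4) and the log2 difference -1.45 (SE 0.16). The estimated reads behind Reg3g numbered 31.6 to 54.5 per GCGR antibody library and 81.01 to 779 per isotype library.

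**Figure D1:**
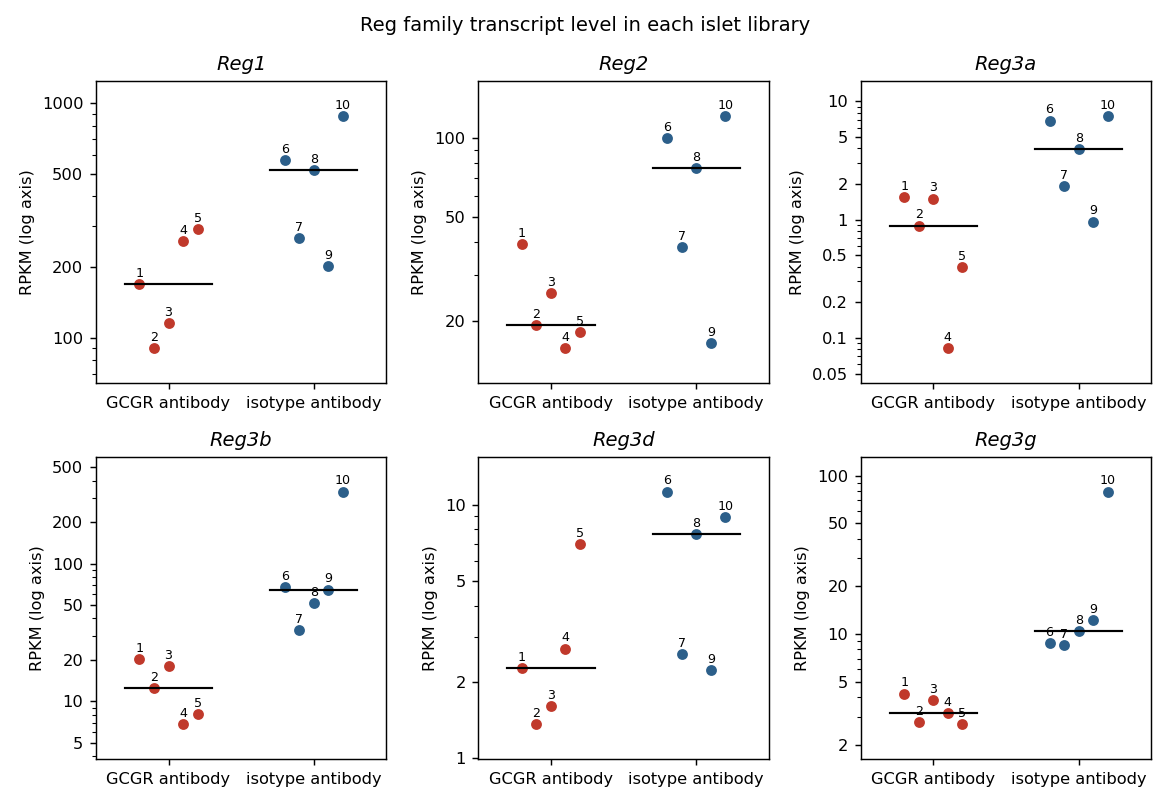
Level of each Reg gene (RPKM, log axis) in the 5 GCGR antibody and 5 isotype antibody libraries, with library numbers beside the points and the group median as a line. Reg3b and Reg3g show no overlap between the groups, the other 4 genes do, and isotype replicate 10 is the highest library in all genes but Reg3d.

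Reg1, the gene of the pancreatic stone protein, stood at 169, 90.02, 115, 258 and 289.6 RPKM in GCGR antibody replicates 1 to 5, against 573, 265, 519, 202 and 882 RPKM in isotype replicates 6 to 10. The groups overlapped, since isotype replicates 7 and 9 lay within reach of GCGR antibody replicates 4 and 5. The means were 184 ± 87.2 RPKM with the GCGR antibody and 488 ± 272 RPKM with the isotype antibody (SD, n = 5 each), a log2 difference of -1.35 (SE 0.42). Reg2 stood at 39.3, 19.3, 25.6, 15.8 and 18.2 RPKM in GCGR antibody replicates 1 to 5, against 99.5, 38.3, 76.5, 16.6 and 121 RPKM in isotype replicates 6 to 10. The overlap came from isotype replicates 7 and 9, and replicate 9 was lower than all but 1 GCGR antibody library. Reg2 averaged 23.6 ± 9.46 RPKM with the GCGR antibody and 70.4 ± 43.0 RPKM with the isotype antibody (SD, n = 5 each), a log2 difference of -1.33 (SE 0.47).

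Reg3d, the relative of the islet neogenesis-associated protein, stood at 2.27, 1.36, 1.61, 2.71 and 7.01 RPKM in GCGR antibody replicates 1 to 5, against 11.3, 2.58, 7.64, 2.23 and 8.94 RPKM in isotype replicates 6 to 10. It had the smallest log2 difference of the 6, -0.97 (SE 0.47), and the groups overlapped, with GCGR antibody replicate 5 above isotype replicates 7 and 9, and those 2 among the other GCGR antibody values. Reg3a, another lectin of the Reg3 type, stood at 1.55, 0.89, 1.504, 0.0816 and 0.395 RPKM in GCGR antibody replicates 1 to 5, against 6.86, 1.93, 3.94, 0.962 and 7.52 RPKM in isotype replicates 6 to 10. The lowest of these values, in GCGR antibody replicate 4, rests on an estimated 0.977 reads, so its distance from the other libraries is poorly determined. The log2 difference of Reg3a was -1.66 (SE 0.49), on the scale of log2(RPKM + 0.5) used throughout, which understates differences near 0.5 RPKM.

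All 6 members had negative log2 differences, and 5 of 6 were at or below -1, against 0.543% of the 13450 tested genes. In 2 of 6, Reg3b and Reg3g, every GCGR antibody library lay below every isotype library, as in 0.840% of all tested genes. In limma over all genes with Benjamini-Hochberg adjustment 0 of 6 were called lower, against 0.0149% of all genes (2 of 13450). At an unadjusted p under 0.05 it was 5 of 6, against 4.18%. Without isotype replicate 10, Reg3b and Reg3g were called lower, 2 of 6 members, when 0.0223% of all genes were (3 of 13424). Without GCGR antibody replicate 5 as well, 1 of 6 was called lower, Reg3g, beside 5 of 13343 genes. With any other library left out, and with the other scalings, filters and covariates, 0 members were called. Because the members were proposed on this same contrast, nothing is read from these counts. The summed level of the family had a log2 difference of -1.47, with 228 ± 82.4 RPKM under the GCGR antibody and 703 ± 454 RPKM under the isotype antibody (SD, n = 5 each).

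The members varied together in 3 pairs. Correlations over all 10 libraries hold the difference between the groups on which the genes were selected, so no p is given for them. Each value was therefore taken as its deviation from its group mean and permuted within the groups. By this measure 3 of 15 pairs passed after adjustment over the 15 (exact permutation test, two-sided). These were Reg2 with Reg3a, Reg1 with Reg3d and Reg3b with Reg3g. No run of 50 bases is shared between the GENCODE M21 transcripts of any of the 15 pairs, so exactly matching reads of that length are not ambiguous between members. Shorter reads and matches with mismatches were not examined.

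Over all 10 libraries Reg2 and Reg3a had r = 0.96 and rho = 0.95, and r = 0.89 without the 2 libraries farthest from the median of Reg2. Their deviations from the group means correlated at 0.93 (exact permutation adjusted p = 0.00104). The Reg3a values of GCGR antibody replicates 4 and 5 in this pair rest on an estimated 0.977 and 5.88 reads. Reg1 and Reg3d had r = 0.92 and rho = 0.96 over all 10 libraries, and r = 0.91 without the 2 farthest libraries. Their deviations correlated at 0.90 (exact permutation adjusted p = 0.00625). For Reg3b and Reg3g, whose groups do not overlap, the deviations correlated at 0.90 (exact permutation p = 0.00868, adjusted 0.0434). Isotype replicate 10 lay far above the other libraries in both genes and weighs on this value. The deviations of this pair were not tested without it. Of these pairs, Reg2 and Reg3a start 24.4 kb apart and Reg1 and Reg3d 47.1 kb apart. Reg3b and Reg3g, the pair with the most similar promoters, stand at opposite ends of the cluster, 98.0 kb apart. The promoters of Reg1 and Reg3d were 50.5% identical and those of Reg2 and Reg3a 54.5%, within the range of the pairs that did not pass.

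**Figure D2:**
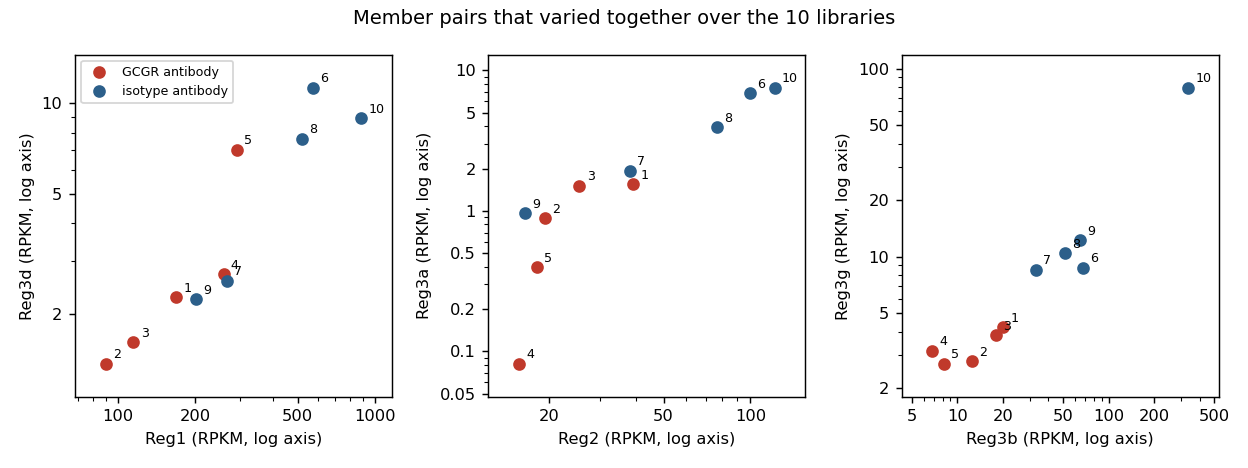
Levels (RPKM, both axes log) of the 3 pairs of Reg genes that varied together within the groups, 1 point per library with its number. In Reg1 with Reg3d and Reg2 with Reg3a the groups overlap. Reg2 was 194 and 46.2 times Reg3a in GCGR antibody replicates 4 and 5, against at most 25.3 times in the other libraries. These 2 ratios are poorly determined, since Reg3a rests on an estimated 0.977 and 5.88 reads there. In Reg3b with Reg3g the GCGR antibody libraries lie apart at the low end and isotype replicate 10 at the high end.

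Acinar genes were followed by 2 lists, of enzymes and of transcription factors, and no gene of either was called. The 23 acinar enzyme genes, all measured and none listed at 0 in every library, summed to 5600 to 18486 RPKM with the GCGR antibody and 4261 to 23538 RPKM with the isotype antibody. In limma 0 of 23 were called over all genes (2 lower at an unadjusted p under 0.05), 21 had negative log2 differences, and their median was -0.55 against -0.07 over all tested genes. The pancreatic trypsin inhibitor gene Spink1 had the smallest p, at 32.9 ± 18.7 RPKM with the GCGR antibody and 113 ± 89.6 RPKM with the isotype antibody (SD, n = 5 each; log2 difference -1.68, SE 0.47, limma adjusted p = 0.310).

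The 5 acinar transcription factor genes had a median log2 difference of -0.75, with 0 of 5 called by limma and 3 lower at an unadjusted p under 0.05. Ptf1a, the master regulator of acinar enzyme genes, stood at 0.392, 0.269, 0.751, 0.544 and 0.621 RPKM in GCGR antibody replicates 1 to 5, against 0.992, 2.35, 1.97, 3.07 and 7.32 RPKM in isotype replicates 6 to 10. Its groups did not overlap, and isotype replicate 10 was again the highest (log2 difference -1.64, SE 0.35, limma adjusted p = 0.111). Gata4, another acinar factor, was at 0.681 ± 0.443 RPKM with the GCGR antibody and 2.24 ± 1.52 RPKM with the isotype antibody (SD, n = 5 each; log2 difference -1.12, SE 0.38, limma adjusted p = 0.482).

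By their mean acinar enzyme level the libraries fell into separate sets, so no pooled correlation is given for it. GCGR antibody replicates 1 to 3 and isotype replicate 9 lay between 6.35 and 6.92 on the log2 scale, and the other 6 libraries between 8.05 and 8.83. Reg1 ran from 258 to 882 RPKM in the 6 enzyme-rich libraries, against 90.02 to 202 RPKM in the other 4, the highest of these being isotype replicate 9. Reg3d ran from 2.58 to 11.3 RPKM in the enzyme-rich libraries and from 1.36 to 2.27 RPKM in the other 4. The sets differ in their mix of the groups, so these ranges also hold the difference between the groups. How many of all genes part in this way was not counted. As deviations from the group means, which still span both sets, r with the enzymes was 0.78 for Reg1 and 0.79 for Reg3d (exact permutation p = 0.0143 and 0.00299, adjusted 0.215 and 0.0896). Within the 6 enzyme-rich libraries r was 0.62 for Reg3d and 0.25 for Reg1 (rho 0.49 for each). In the same libraries r was 0.10 for Reg3b and -0.03 for Reg3g (rho 0.31 and 0.20). These 6 include libraries of both groups, so the values hold the difference between the groups and no p is given for them. With so few libraries they decide little. For the correlations with cell type levels over all 10 libraries, p-values were adjusted over the 30 combinations of 6 members and 5 lists.

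The acinar transcription factors, a list added to these comparisons after the data were seen, gave no relation with Reg3b or Reg3g that passed within the groups. As deviations from the group means r was 0.66 for Reg3b and 0.86 for Reg3g (exact permutation adjusted p = 0.978 and 0.665). Over all 10 libraries r was 0.86 and 0.94, and no p is given for these values, since they hold the difference between the groups on which the genes were selected. Without isotype replicate 10 they were 0.67 and 0.81, and rho over all 10 libraries was 0.61 and 0.65.

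With the acinar enzyme level as a covariate the log2 differences of Reg3b and Reg3g were -2.74 (SE 0.57) and -2.06 (SE 0.55), about as large as without it. This fit takes the enzyme level as a straight line, although the libraries fell into separate sets by it. Relative to the summed enzymes the groups overlapped in both genes, as given below. Those of Reg1 and Reg3d were -0.96 (SE 0.30) and -0.54 (SE 0.33), and those of Reg2 and Reg3a -1.09 (SE 0.47) and -1.58 (SE 0.54). With the acinar transcription factor level as the covariate, chosen after the data were seen, Reg3b was at -1.34 (SE 0.61) and Reg3g at -0.47 (SE 0.40). That level itself differs between the groups, from 0.61 to 0.92 with the GCGR antibody and from 0.87 to 2.69 with the isotype antibody on the log2 scale. It went apart from the enzyme level in some libraries. Isotype replicate 9 had enzymes at 6.35 and factors at 1.64, and GCGR antibody replicate 5 had 8.74 and 0.92. Ptf1a, Gata4, Nr5a2 and Rbpjl reached at most 1.18 RPKM with the GCGR antibody, near the added 0.5. Whether the factor level measures acinar cell content was not tested.

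**Figure D3:**
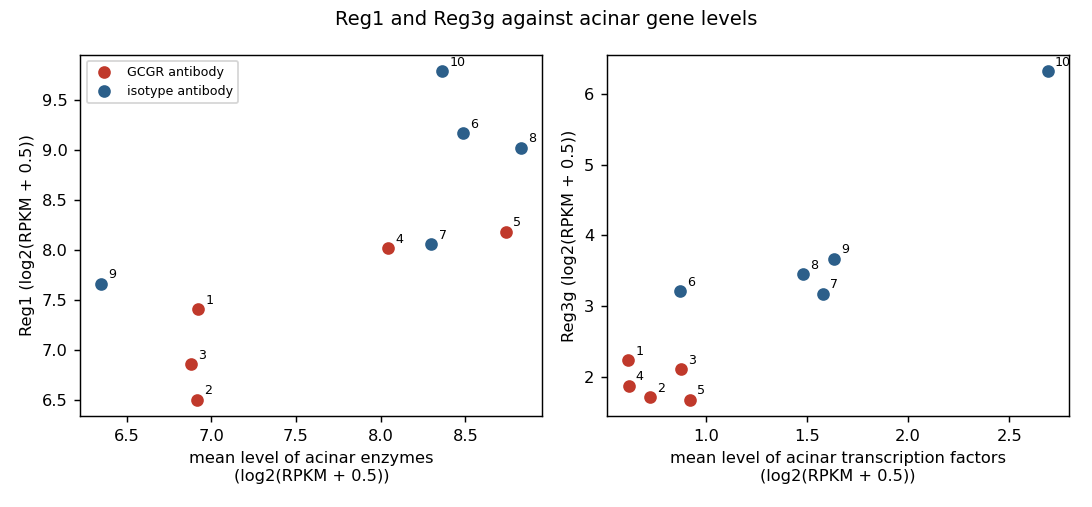
Reg1 against the mean level of 23 acinar enzyme genes (left) and Reg3g against that of 5 acinar transcription factor genes (right), all as log2(RPKM + 0.5), 1 point per library with its number. On the left 4 enzyme-poor libraries stand apart from 6 enzyme-rich ones, which have the higher Reg1 levels, and on the right isotype replicate 10 stands alone at the top. The enzyme-poor and enzyme-rich libraries differ in their mix of the groups.

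**Figure D4:**
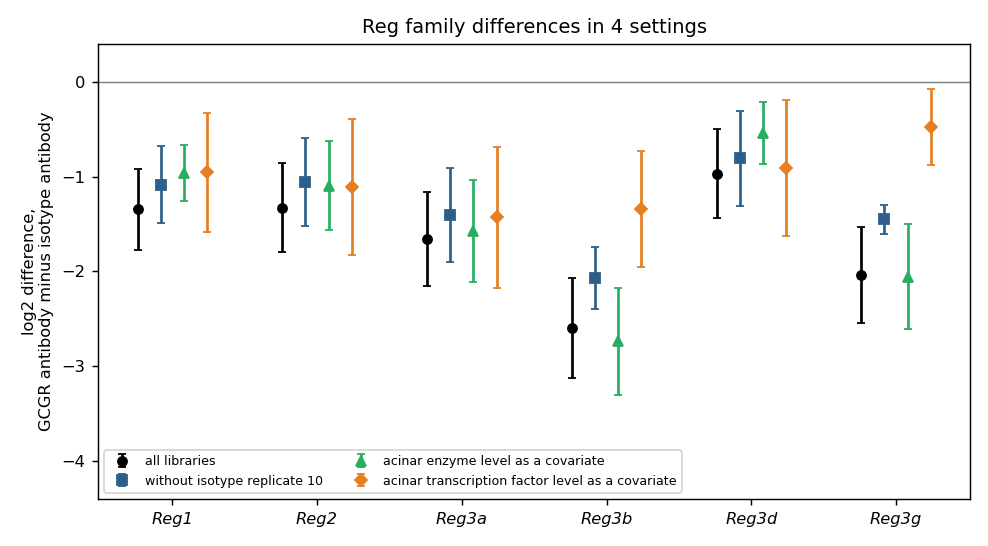
Log2 difference of each Reg gene, GCGR antibody minus isotype antibody, with limma's SE as bars, for all libraries, without isotype replicate 10, and with either acinar level as a covariate. All differences are below 0, and those of Reg3b and Reg3g shrink most with the transcription factor level, to -1.34 and -0.47.

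Relative to the acinar enzymes, 2 isotype libraries held far more Reg3b than the other 8 libraries. Per 1000 RPKM of summed acinar enzymes, Reg3b came to 0.440 to 3.599 RPKM with the GCGR antibody and to 4.05, 2.07, 2.19, 15.2 and 20.9 RPKM in isotype replicates 6 to 10. Reg3g by the same measure came to 0.146 to 0.752 RPKM with the GCGR antibody. In isotype replicates 6 to 10 Reg3g came to 0.528, 0.535, 0.444, 2.87 and 4.98 RPKM. The groups overlapped in both genes by this measure, and isotype replicates 9 and 10 stood apart. Isotype replicate 9 had the lowest enzyme level of all libraries together with 64.7 RPKM of Reg3b. Reg1 per 1000 RPKM of enzymes varied less, from 15.2 to 30.2 RPKM with the GCGR antibody and from 16.6 to 55.3 RPKM with the isotype antibody, and was again highest in isotype replicates 9 and 10.

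Ductal, leukocyte and beta cell levels gave no relation with any member that passed. The 11 tested ductal genes had a median log2 difference of 0.01, with 0 called by limma (1 higher and 4 lower at an unadjusted p under 0.05). Among them the duct keratin gene Krt19 stood at 26.5 ± 11.3 RPKM with the GCGR antibody and 69.04 ± 32.4 RPKM with the isotype antibody (SD, n = 5 each; log2 difference -1.32, SE 0.40, limma adjusted p = 0.364). Tspan8, a tetraspanin of epithelia, was higher in every GCGR antibody library, at 39.4 ± 7.32 RPKM against 23.8 ± 3.27 RPKM with the isotype antibody (SD, n = 5 each; limma adjusted p = 0.0808). Of 13 tested leukocyte genes 0 were called by limma, and 0 also at an unadjusted p under 0.05. Leukocyte genes summed to 99.6 to 748 RPKM with the GCGR antibody and 131 to 678 RPKM with the isotype antibody. Of 11 beta cell genes 0 were called (3 lower at an unadjusted p under 0.05). All 11 had negative log2 differences, with a median of -0.45 against -0.07 over all tested genes. Of 10 mesenchymal and endothelial genes 0 were called (1 lower at an unadjusted p under 0.05). The part of these cell types in the Reg differences was not tested further.

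By the rule of highest Pearson's r with the summed Reg level over 10 libraries, the most similar genes were led by Dmbt1, a secreted mucosal scavenger protein (r = 0.94), and Try10, a trypsinogen (r = 0.93). Dmbt1 stood at 6.71 to 20.2 RPKM with the GCGR antibody and 24.6 to 148 RPKM with the isotype antibody, with no overlap. They were followed by the nectin gene Pvrl4 (0.92), Spink1 (0.91), the histone deacetylase gene Hdac9 (0.91), Ifrd1 (0.90), the receptor kinase-like gene Ryk (0.90), Erp27, a pancreatic endoplasmic reticulum protein (0.90), the trypsinogen gene Prss3 (0.89) and Tes (0.89). Of these 10, the trypsinogens, Spink1 and Erp27 are products of acinar cells. The most opposite genes were the potassium channel gene Kcnc4 (-0.95), Mpp2 (-0.94), Sorcs2 (-0.94), the acid-sensing channel gene Asic2 (-0.94) and the adenosine receptor gene Adora2a (-0.92). These values rank genes over 10 libraries and carry no test. They hold the difference between the groups on which the members were selected, and most of the sum is Reg1. For the deviations from the group means, r of the 10 most similar genes ran from 0.75 (Tes) to 0.96 (Prss3).

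Single members had different closest genes by r over all 10 libraries, which again holds the difference between the groups. Reg1 was nearest to Try10 (r = 0.96), Ryk (0.93) and Erp27 (0.93), and Reg3d to Afap1l1 (0.94), Ryk (0.94) and the synaptic scaffold gene Erc2 (0.93). Reg2 was nearest to Zfp872 (0.87), the lipid droplet gene Ldah (0.86) and Rbbp9 (0.86), and Reg3a to Rbbp9 (0.92), Morn1 (0.90) and Zfp872 (0.87). Reg3b was nearest to Tes (0.95), Cxadr (0.95) and Fam19a1 (0.94), and Reg3g to Cxadr (0.99), Gdpd1 (0.98) and Rhoq (0.98). Cxadr, the epithelial adhesion receptor used by coxsackieviruses and adenoviruses, ran from 9.15 to 11.3 RPKM with the GCGR antibody and from 13.6 to 32.1 RPKM with the isotype antibody. Its r with Reg3g was 0.97 without isotype replicate 10 and 0.98 for the deviations from the group means. The first value keeps the difference between the groups and the second keeps isotype replicate 10. Cxadr was picked by its r in these same libraries, so neither value is a test.

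The cytokine pathway that is known to induce Reg3 genes was measured at the level of receptors, kinases and ligands. Of 17 tested genes of gp130, IL-22 and IL-17 receptors and STAT3 signalling, 0 were called by limma in either direction (1 lower at an unadjusted p under 0.05), with a median log2 difference of -0.05 against -0.07 over all tested genes. Stat3 stood at 57.2 ± 9.29 RPKM with the GCGR antibody and 66.4 ± 11.004 RPKM with the isotype antibody (SD, n = 5 each; log2 difference -0.21, SE 0.15, limma adjusted p = 0.845). The phosphatase gene Ptpn11 had the smallest p of the list (-0.40, SE 0.16, limma adjusted p = 0.649), followed by the receptor gene Lifr (-0.33, SE 0.23), and the kinase gene Jak1 was at -0.13 (SE 0.10). Of 7 tested cytokine genes 0 were called, and 0 also at an unadjusted p under 0.05.

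Il6 stood at 1.90, 2.18, 2.37, 0.691 and 20.5 RPKM in GCGR antibody replicates 1 to 5, against 0.724, 1.34, 0.806, 0.926 and 7.72 RPKM in isotype replicates 6 to 10. GCGR antibody replicate 5, the highest in Il6, held 8.13 RPKM of Reg3b, while isotype replicate 10, the next in Il6, held the most. Il22, named after its values were seen, was listed at 0 in 5 of 10 libraries and was highest, at 2.84 RPKM, in the same GCGR antibody replicate 5. These are values of single libraries, and whether these cytokines had a part in the Reg levels was not tested.

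Of 13 tested acute phase genes linked to STAT3, 0 were called by limma (1 higher at an unadjusted p under 0.05). Their median log2 difference was 0.25, with 9 above 0 and 4 below 0. Their mean level was uneven, from 0.78 to 3.61 with the GCGR antibody and from 0.95 to 2.59 with the isotype antibody on the log2 scale. Lcn2, the iron-scavenging lipocalin, stood at 16.5, 57.5, 242, 1.44 and 3.42 RPKM in GCGR antibody replicates 1 to 5, against 0.461, 14.5, 4.90, 5.98 and 21.4 RPKM in isotype replicates 6 to 10. The groups overlapped widely, and the library with the most Lcn2 was a GCGR antibody one. The fibrinogen gene Fgb was at 2.58 ± 1.27 RPKM with the GCGR antibody and 1.12 ± 0.65 RPKM with the isotype antibody (SD, n = 5 each; log2 difference 0.94, SE 0.36, limma adjusted p = 0.586).

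Pancreatic injury genes included members that lay lower alongside the Reg genes without passing. Of 18 tested, 0 were called by limma (1 higher and 5 lower at an unadjusted p under 0.05), 13 had negative log2 differences and the median was -0.44. Dmbt1 had a log2 difference of -2.02 (SE 0.45, limma adjusted p = 0.126). Clu, the secreted chaperone clusterin that marks injured acinar and duct cells, stood at 281, 556, 494, 459.7 and 618 RPKM in GCGR antibody replicates 1 to 5, against 494, 1362, 2048, 1033 and 2498 RPKM in isotype replicates 6 to 10. Only isotype replicate 6 fell within the range of the GCGR antibody libraries (log2 difference -1.47, SE 0.39, limma adjusted p = 0.247). The hyaluronan receptor gene Cd44 lay the other way, at 28.4 ± 7.73 RPKM with the GCGR antibody and 18.5 ± 4.82 RPKM with the isotype antibody (SD, n = 5 each; limma adjusted p = 0.649). Of 4 tested mucosal antimicrobial genes 0 were called by limma (1 lower at an unadjusted p under 0.05).

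Outside the cluster, Reg4, the family member on chromosome 3, was listed at 0 in 7 of 10 libraries and reached 0.174 RPKM at most. Extl3, a glycosyltransferase gene whose product is the proposed Reg receptor, was present in all libraries at 7.10 ± 0.92 RPKM with the GCGR antibody and 8.62 ± 1.71 RPKM with the isotype antibody (SD, n = 5 each; log2 difference -0.25, SE 0.14, limma adjusted p = 0.775). Within 1 Mb on either side of the cluster the adhesion gene Ctnna2 was the 1 protein-coding neighbour, at means of 2.15 RPKM with the GCGR antibody and 2.01 RPKM with the isotype antibody.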

How the data were processed

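Per the labels' protocols, islets were purified over Histopaque, their RNA was extracted (miRNeasy) and Nextera XT libraries were made from polyA RNA. The authors deposited RPKM values for 24475 genes in 10 libraries. The submitters' processing notes name GRCm38, mm10, CASAVA 1.8.2 and FastQC; the aligner, counter and gene models are not given in the sources used. Of the genes, 417 hold values between 0 and 0.0001 RPKM, less than 1 whole read would give.

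RPKM was used unscaled as log2(RPKM + 0.5). The 13450 genes averaging 0.5 RPKM or more (all 6 members among them) entered limma 3.58.1 in R 4.3.3 (variance trend, Benjamini-Hochberg over all genes, threshold 0.05). The step was tested on simulated data. SE is limma's moderated one. The members and gene lists were chosen with earlier results of these data known. Named genes followed a rule: the members, Reg4, Extl3, up to 4 genes per list with the smallest p, and the genes closest in pattern; others were chosen after their values were seen. List levels are means of log2 values of tested genes. Depth was the number of reads that best turned low values of 15614 genes with 1 RefSeq-linked GENCODE M21 transcript into whole reads; 70.3% to 76.8% of these values lay within 0.1 of a whole number. Coordinates and promoters are RefSeq's (GRCm38.p6), matched by gene ID for all 6 members; alignments used Biopython 1.88. Alternatives were other pseudocounts, filters and scalings, acinar covariates, and leaving out libraries.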

Additional observations from a re-analysis of the deposited data

Results flagged for a closer look

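A gap test for a library far from the other 4 of its group was run on 40 groups of values (the members, their sum and the gene list levels, on the log2 scale), where chance flags about 1 in 20. It flagged 4. Reg3g was far higher in isotype replicate 10 than in the other isotype libraries, the gap taking 0.843 of the group's range. The mean level of the acinar enzymes was lowest in isotype replicate 9 (0.786 of the range), that of the beta cell genes lowest in isotype replicate 10 (0.791), and that of the mucosal antimicrobial genes lowest in isotype replicate 6 (0.767). Isotype replicate 10 was also the highest library of Reg3b, Ptf1a and Dmbt1.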

How the results depend on the processing

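The summed Reg difference stayed negative in all 16 alternatives run, between -1.72 and -0.93, and with 1 library left out between -1.72 and -1.16. All member differences were negative in every setting, and 2 moved by more than the spread between libraries: Reg3b (-1.34) and Reg3g (-0.47) with the acinar transcription factor level as a covariate. Over all genes 53 were called higher, 23 when only genes averaging 5 RPKM or more were kept, and 31 to 50 with 1 library left out. The number called lower was 2, and 0 in those more abundant genes (322 at an unadjusted limma p under 0.05). It was 5 with quantile normalization, with the acinar enzyme covariate, and without GCGR antibody replicate 5 and isotype replicate 10 together, the last chosen after seeing the data. With the acinar transcription factor covariate, also chosen after seeing the data, 10 were called higher and 1 lower. With 1 library left out it ranged from 0 (without GCGR antibody replicate 1, 614 unadjusted) to 20 (without isotype replicate 6); the cause was not tested. No paired analysis was possible because the groups share no library number. The depth limits Reg3a most, at 0.977 to 21.5 estimated reads per GCGR antibody library.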

Other observations

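The 2 isotype libraries in which Reg3b and Reg3g took the largest share of the family, replicates 9 and 10, also held the most transcript of the mucosal genes Tff1 and Duox2. Tff1, a secreted peptide of mucous epithelia, stood at 0.124, 0.707, 0.132, 0.286 and 0.806 RPKM in GCGR antibody replicates 1 to 5, against 0, 3.04, 2.11, 40.9 and 66.4 RPKM in isotype replicates 6 to 10. Its limma adjusted p was 0.586 over all genes. Duox2, an enzyme of mucosal defence that makes hydrogen peroxide, ran from 0.0389 to 0.138 RPKM with the GCGR antibody and stood at 0.0518, 0.404, 0.163, 1.24 and 2.91 RPKM in isotype replicates 6 to 10. The ratio of Reg3b to Reg3g ran from 2.15 to 4.78 with the GCGR antibody and from 3.87 to 7.68 with the isotype antibody, and in isotype replicate 10, the highest library of both, it was 4.21. The ratio of Reg1 to Reg2 was 16.3 and 15.9 in GCGR antibody replicates 4 and 5, against 4.30 to 4.65 in the other 3 GCGR antibody libraries and 5.76 to 12.2 with the isotype antibody.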
